A study of Homo sapiens with 4 samples.

Results

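The genes described here encode 10 heat shock chaperones and helpers of the cytosol and the mitochondrion, namely HSP90AA1, HSP90AB1, AHSA1, HSPA8, HSPA1A, HSPA1B, HSPH1, DNAJB1, HSPB1 and HSPD1. They were taken by gene symbol from the 36359 genes of the deposited table, in which each symbol was found, and all 10 were among the 21630 genes with enough reads to be tested. The RNA came from ACHN, a cell line of human kidney cancer, in which PRR11, a gene for a proline-rich protein, had been silenced (siPRR11) or which had received the control siRNA instead (siNC), and each group had 2 libraries. Both groups were grown in the same serum-containing medium at 37 °C and transfected with the same lipid reagent. No heat treatment is named for either group in the sources used here. The labels do not say whether the 2 libraries of a group came from separate cultures, so the p-values measure the spread between these libraries, which may be technical. They also do not say which siPRR11 duplex each library received.

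Chaperones bind proteins that have not reached, or have lost, their folded state. In the cytosol, HSP70 proteins hold a client in cycles of ATP hydrolysis that J-domain proteins start and nucleotide exchange factors end, and many clients, kinases and steroid receptors among them, then pass to the HSP90 dimer with the help of cochaperones. HSPB1 belongs to the small heat shock proteins, which hold unfolded chains without ATP, and HSPD1 forms the folding chamber of the mitochondrial matrix with its lid HSPE1. Several of these genes are switched on by heat and other protein damage through heat shock factor HSF1, which binds heat shock elements made of inverted repeats of the unit GAA, while HSPA8 and HSP90AB1 are known as constitutive members that most cells keep at a high level.

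The libraries held between 59003839 and 92612749 reads counted on genes, and the 10 chaperone genes took between 0.827% and 1.01% of them. PRR11 had 41.3 and 40.4 CPM (counts scaled to the library size with TMM factors) in siNC and 15.3 and 14.0 CPM in siPRR11, which is 35.9% of the control level (log2 fold change -1.48 ± 0.0909 SE, edgeR quasi-likelihood test with Benjamini-Hochberg adjustment, adjusted p = 3.35e-06). Renal epithelial markers were present, with PAX8 between 34.6 and 49.8 RPKM, the deposited level per kilobase of exons, and KRT8 between 167 and 222 RPKM, while CDH6 stayed below 0.01 RPKM. Of 7 immune and endothelial markers in the table, 6 stayed below 1 RPKM in every library and CD68 lay between 20.3 and 28.0 RPKM, so that the summed level of this list was 20.3 to 25.2 RPKM in siNC and 25.2 to 28.0 RPKM in siPRR11. The part of this difference in the results below was not tested. Across all genes tested, 16.7% had an adjusted p below 0.05, of which 7.61% of genes were higher and 9.14% lower after PRR11 silencing.

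HSP90AB1, the constitutive cytosolic HSP90, fell to 73.3% of its control level after PRR11 silencing, and AHSA1, an activator of HSP90, rose 1.25-fold. The other 8 did not pass the test. In 7 of the 10 genes, HSPA8, HSPA1A and HSPA1B among them, the larger difference within a group exceeded that between the groups. This held for 43.7% of the 10424 genes whose log2 CPM averaged 3 or more. The 2 of 10 genes called, or 20%, stood beside 16.7% of all genes. The groups did not overlap in CPM for 4 of the 10, namely HSP90AB1, AHSA1, DNAJB1 and HSPD1, beside 58.4% of all genes. The median log2 fold change of the 10 was -0.02, beside 0.0022 for all genes. The share called was near that of all genes, and the share without overlap was below it.

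The deposited RPKM divide by the summed length of all annotated exons of a gene, and on this scale the 10 genes spanned a wide range of expression. HSP90AB1 had the highest mean level at 1134 RPKM and was the 28th most abundant of all genes, followed by HSP90AA1 at 553 RPKM, HSPA8 at 233 RPKM, HSPD1 at 148 RPKM and HSPB1 at 127 RPKM. AHSA1 had a mean level of 61.5 RPKM, HSPA1B 44.7 RPKM, HSPH1 36.4 RPKM, DNAJB1 27.2 RPKM and HSPA1A 12.7 RPKM. The constitutive HSP90AB1 and HSPA8 thus exceeded the inducible HSPA1A and HSPA1B in every library. Neighbours in this order were separated in both groups, except that HSPA1B and HSPH1 overlapped in both groups, and HSPD1 with HSPB1 and AHSA1 with HSPA1B overlapped in siNC. The order depends on the length used. Divided by the length of the canonical transcript instead, a scale added after the data were seen, HSPH1 (mean 58.2 RPKM) came before HSPA1B (44.8 RPKM), DNAJB1 was at 44.6 RPKM, and the other ranks were the same. In CPM, which takes no account of length, HSP90AA1 was above HSP90AB1 in siPRR11 library 1, with 3064 against 2845 CPM.

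HSP90AB1 lies at chr6:44246166-44253888 on the plus strand of GRCh38. It had 3983 and 3838 CPM in siNC and 2845 and 2889 CPM in siPRR11. Both silenced libraries lay below both control libraries, at 3911 ± 102 CPM (SD, n = 2) and 2867 ± 31.3 CPM (SD, n = 2). The log2 fold change was -0.45 ± 0.0697 (SE, 95% interval -0.60 to -0.30, edgeR adjusted p = 0.00133), so that 73.3% of the control level was left. In such bulk libraries, fewer cells with a transcript and less of it per cell cannot be told apart. The fold change stayed between -0.48 and -0.42 when any 1 library was left out. The limma fit to log2 RPKM gave -0.40 with an adjusted p of 0.0718 (pseudocount 1) or 0.0686 (pseudocount 0.1), above the threshold of 0.05. Its pseudogenes in the table held at most 0.459% of its counts, and HSP90AB2P, the one with the most, had a log2 fold change of -0.10 (edgeR adjusted p = 0.656), which changed sign to 0.08 without siNC library 2.

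HSP90AA1, which encodes the stress-inducible cytosolic HSP90 (chr14:102080738-102139699, minus strand), had 3260 and 2554 CPM in siNC and 3064 and 2723 CPM in siPRR11. The silenced libraries lay between the control libraries, and the log2 fold change was -0.01 ± 0.106 (SE, 95% interval -0.24 to 0.22, edgeR adjusted p = 0.977). It was 0.18 without siNC library 1 and -0.18 without siNC library 2, neither of which passed the test. The paralogs share 59.9% of aligned transcript positions, and 2.33% of the 100-base windows of HSP90AA1 and 1.67% of those of HSP90AB1 also occur exactly in a transcript of another gene.

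The ratio of the paralogs was lower in both silenced libraries. HSP90AB1 had 2.15 and 2.65 times the RPKM of HSP90AA1 in siNC and 1.64 and 1.87 times in siPRR11, or 2.40 ± 0.350 and 1.75 ± 0.165 (SD, n = 2 each). The groups did not overlap, and a two-sided exact permutation test gave p = 0.333, the smallest that 2 libraries against 2 can give. Their summed level was 1926 and 1744 RPKM in siNC and 1566 and 1510 RPKM in siPRR11, again without overlap (exact permutation p = 0.333).

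**Figure D1:**
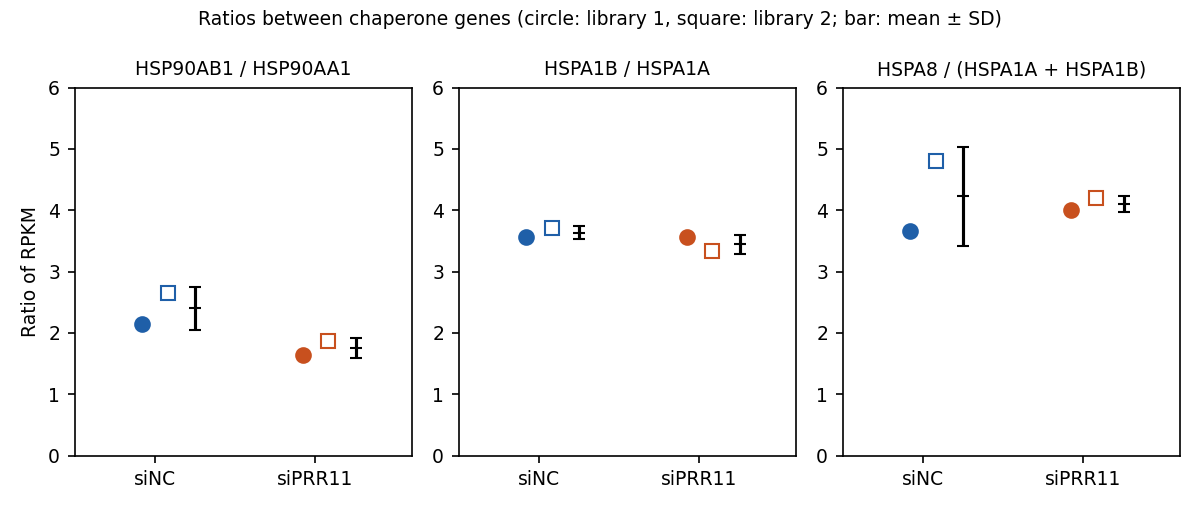
Ratio of RPKM between chaperone genes in each library (y axis, linear from 0), with circles for library 1, squares for library 2 and the mean ± SD (n = 2) beside them. The ratio of HSP90AB1 to HSP90AA1 is 2.15 and 2.65 in siNC and 1.64 and 1.87 in siPRR11, whereas the other 2 ratios overlap between the groups.

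AHSA1 encodes the activator of the HSP90 ATPase (chr14:77457870-77469474, plus strand). It had 176 and 146 CPM in siNC and 208 and 194 CPM in siPRR11, so both silenced libraries were higher, at 161 ± 20.7 and 201 ± 9.30 CPM (SD, n = 2). The log2 fold change was 0.32 ± 0.0904 (SE, 95% interval 0.12 to 0.52, edgeR adjusted p = 0.0313), a 1.25-fold rise. This call rested on single libraries. The log2 fold change was 0.19 without siNC library 2 (edgeR adjusted p = 0.116) and 0.27 without siPRR11 library 1 (edgeR adjusted p = 0.139), and limma gave adjusted p-values of 0.0854 (pseudocount 1) and 0.0766 (pseudocount 0.1). HSP90AB1 had 22.4 and 25.9 times the RPKM of its activator in siNC and 13.6 and 14.7 times in siPRR11 (exact permutation p = 0.333). Since the groups did not overlap for either gene and the genes moved in opposite directions, this ratio had to separate the groups. It is no further result.

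The other cochaperones of HSP90 moved in both directions. Of 13 listed genes, 3 fell and 1 rose, or 30.8% beside 16.7% of all genes, and their median log2 fold change was -0.05. STIP1, the adaptor that joins HSP70 to HSP90, had 266 and 235 CPM in siNC and 173 and 158 CPM in siPRR11 (log2 fold change -0.60 ± 0.0834 SE, edgeR adjusted p = 0.000681). CDC37, which brings kinases to HSP90, had 678 and 615 CPM in siNC and 497 and 459 CPM in siPRR11 (log2 fold change -0.44 ± 0.0783 SE, edgeR adjusted p = 0.00297). For both genes, the gap between the groups was wider than that between libraries of a group. TTC4, a further protein that binds HSP90 through its repeats, fell from 25.2 and 24.9 CPM to 18.5 and 17.8 CPM (log2 fold change -0.47, edgeR adjusted p = 0.00445). UNC45A, a cochaperone for the folding of myosin, rose from 85.1 and 74.2 CPM to 108 and 108 CPM (log2 fold change 0.44, edgeR adjusted p = 0.0041). STIP1, TTC4 and UNC45A kept their calls in every alternative run, and CDC37 lost its call in limma with a pseudocount of 1 (adjusted p = 0.0509).

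**Figure D2:**
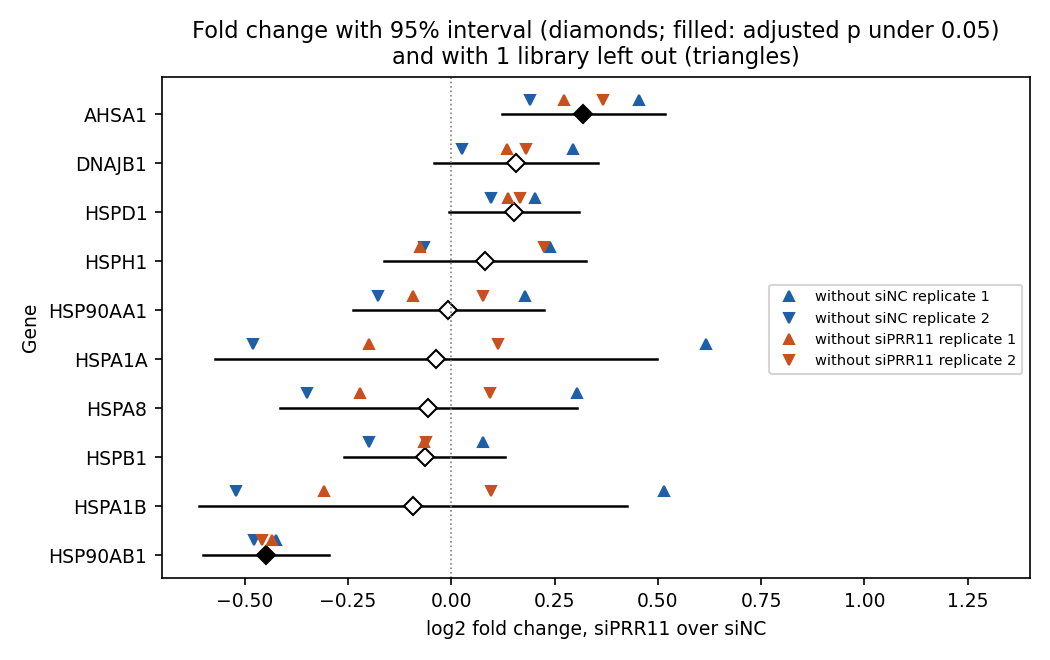
Log2 fold change of siPRR11 over siNC for the 10 chaperone genes (diamonds, filled where the edgeR adjusted p is below 0.05) with its 95% interval (lines), and the same value with 1 library left out (triangles). HSP90AB1 stays between -0.48 and -0.42 in all 4 reduced fits, while HSPA1A runs from -0.48 to 0.62.

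The cytosolic HSP70 genes HSPA8, HSPA1A and HSPA1B did not pass the test, and libraries of the same group lay further apart than the groups did. HSPA8, the constitutive HSC70 (chr11:123057489-123063230, minus strand), had 1408 and 895 CPM in siNC and 1230 and 986 CPM in siPRR11. Its control libraries differed 1.57-fold and enclosed both silenced libraries, and the log2 fold change was -0.06 ± 0.165 (SE, 95% interval -0.42 to 0.30, edgeR adjusted p = 0.86). HSPA1B (chr6:31827735-31830255, plus strand), one of a pair of neighbouring heat-inducible HSP70 genes, had 156 and 76.4 CPM in siNC and 125 and 94.0 CPM in siPRR11 (log2 fold change -0.09 ± 0.237 SE, 95% interval -0.61 to 0.43, edgeR adjusted p = 0.835). Its neighbour HSPA1A (chr6:31815464-31817946, plus strand) had 43.3 and 20.3 CPM in siNC and 34.5 and 27.7 CPM in siPRR11 (log2 fold change -0.04 ± 0.245 SE, 95% interval -0.57 to 0.50, edgeR adjusted p = 0.943). Both neighbours showed the same pattern, with the silenced libraries between control libraries that differed 2.05-fold for HSPA1B and 2.14-fold for HSPA1A. The intervals are wide enough to include changes in either direction.

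The direction of these 3 genes depended on which libraries were used. Without siNC library 1, their log2 fold changes were 0.31 for HSPA8, 0.62 for HSPA1A and 0.51 for HSPA1B (edgeR adjusted p = 0.0134, 9.71e-05 and 0.000249). Without siNC library 2, they were -0.35, -0.48 and -0.52 (edgeR adjusted p = 0.00477, 0.00096 and 0.000182). Without siPRR11 library 2, the direction also turned, to 0.09, 0.11 and 0.10, and none of these values passed the test (edgeR adjusted p = 0.684, 0.728 and 0.732). Leaving out either control library moved the number of chaperone genes called by more than 1.5 times. The number called over all genes stayed within 1.5 times in these 2 fits. Each such fit leaves 1 library in a group and takes its spread from the other group.

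HSPA1A and HSPA1B are near-identical copies, and 72.4% and 72.8% of their 100-base windows occur exactly in another gene's transcript, mostly each other's. Their transcripts share 91.4% of aligned positions. How reads matching both were counted is not given in the sources used here, so the split between them is uncertain. Whether their like pattern over the libraries comes from reads that match both was not tested. HSPA1B had 3.56 and 3.71 times the RPKM of HSPA1A in siNC and 3.56 and 3.34 times in siPRR11, and the groups overlapped in this ratio. With their counts summed, the pair did not pass the test and its direction was the same.

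The stretch before the start is shown for HSPA1A, HSPA1B, HSPA8, HSP90AA1 and HSP90AB1. These genes were picked for their values above, and whether the stretches bear on those values was not tested. The sequences are from RefSeq on GRCh38.p14, hold the 250 bases before an annotated start, 5′ to 3′ on the strand of the gene, and carry in capitals each match to a heat shock element of 2 or 3 units, searched on both strands.
HSPA1A promoter, chr6:31815293-31815542 (+ strand): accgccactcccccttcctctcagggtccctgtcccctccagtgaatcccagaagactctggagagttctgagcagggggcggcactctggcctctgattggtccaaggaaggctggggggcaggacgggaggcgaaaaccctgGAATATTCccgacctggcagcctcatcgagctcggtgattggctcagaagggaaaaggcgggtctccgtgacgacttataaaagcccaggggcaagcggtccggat
HSPA1B promoter, chr6:31827488-31827737 (+ strand): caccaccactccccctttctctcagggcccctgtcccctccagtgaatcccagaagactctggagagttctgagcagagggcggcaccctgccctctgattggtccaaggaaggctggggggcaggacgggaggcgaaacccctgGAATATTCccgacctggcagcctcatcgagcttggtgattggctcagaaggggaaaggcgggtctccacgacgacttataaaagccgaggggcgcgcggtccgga
HSPA8 promoter, chr11:123062137-123062386 (- strand): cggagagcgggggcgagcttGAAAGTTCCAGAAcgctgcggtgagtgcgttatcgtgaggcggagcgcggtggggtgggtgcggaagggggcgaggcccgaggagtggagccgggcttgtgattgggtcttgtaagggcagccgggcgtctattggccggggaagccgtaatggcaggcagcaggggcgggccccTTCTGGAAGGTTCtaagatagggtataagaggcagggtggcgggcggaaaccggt
HSP90AA1 promoter, chr14:102087045-102087294 (- strand): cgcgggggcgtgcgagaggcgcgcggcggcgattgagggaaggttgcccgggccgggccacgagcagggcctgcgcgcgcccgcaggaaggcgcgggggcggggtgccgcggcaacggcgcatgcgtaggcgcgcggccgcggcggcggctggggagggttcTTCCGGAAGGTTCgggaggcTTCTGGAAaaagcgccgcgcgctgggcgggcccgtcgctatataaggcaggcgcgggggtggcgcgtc
HSP90AB1 promoter, chr6:44247693-44247942 (+ strand): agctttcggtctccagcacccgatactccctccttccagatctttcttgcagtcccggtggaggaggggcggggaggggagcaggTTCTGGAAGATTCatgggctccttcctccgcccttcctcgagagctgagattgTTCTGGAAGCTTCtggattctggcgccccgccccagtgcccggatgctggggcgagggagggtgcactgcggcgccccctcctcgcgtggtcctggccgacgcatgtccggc
The form with 3 units was GAANNTTCNNGAA or TTCNNGAANNTTC, and the form with 2 units was GAANNTTC or TTCNNGAA, so each match of the longer form also holds matches of the shorter. HSPA1A and HSPA1B have a match of the shorter form 106 and 105 bases before the start, and their promoters of 300 bases are 92.0% identical. HSPA8 has matches of the longer form 230 and 55 bases before its start, HSP90AB1 at 165 and 112 bases before the start shown, and HSP90AA1 at 88 bases. HSP90AB1 has 3 annotated starts and HSP90AA1 has 2, and the other starts held no match.

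In windows of 250 bases before and 50 after an annotated start, the longer form occurred in 0.49% of 35116 promoters and, counted by gene, in 0.608% of 27305 genes. It was found in 4 of the 10 chaperone genes, the fourth being HSPD1. The shorter form occurred in 13.5% of promoters and 16.2% of genes, and in 8 of the 10, all but AHSA1 and HSPH1. A match describes the letters in this window and is not a measured binding site. Of the 4 genes with the longer form, HSP90AB1 passed the test. Its ratio to HSP90AA1 did not overlap between the groups (two-sided exact permutation p = 0.333). Whether its change differed from those of HSPA8 and HSPD1 was not tested.

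Differences between libraries of the same group ran through most of the 10 genes. In 9 of them, library 1 was higher than library 2 in both groups, beside 32.2% of the 10424 genes whose log2 CPM averaged 3 or more. HSP90AB1 was the exception, with log2 differences between libraries of 0.05 in siNC and -0.02 in siPRR11. The median size of the log2 difference over the 10 was 0.289 in siNC and 0.132 in siPRR11, and over the 10424 genes it was 0.106 and 0.0767. The labels do not say that a replicate number marks a shared culture or day. For HSPA1A and HSPA1B, 0.048% and 0.0672% of the 10424 genes differed at least as far between the control libraries. In 7 of the 10 genes, the larger difference within a group exceeded the difference between groups, beside 43.7% of the 10424 genes.

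**Figure D3:**
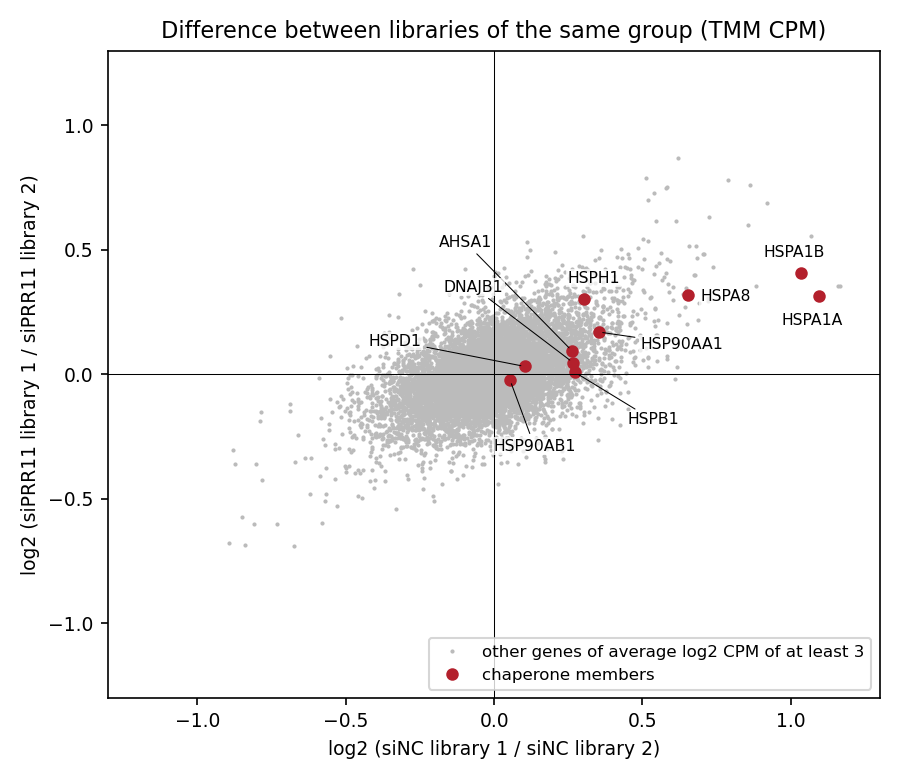
Log2 ratio of library 1 to library 2 in siNC (x axis) and in siPRR11 (y axis), from TMM-scaled CPM, for genes whose log2 CPM averaged 3 or more (grey) and the 10 chaperone genes (red); 2 genes lie outside the axes. Of the red points, 9 of 10 have library 1 higher in both groups, with HSPA1A and HSPA1B farthest to the right and HSP90AB1 nearest to the centre.

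Some other chaperone lists shared this trait and others did not. Above the same minimum level, library 1 was higher in both groups for 13 of 15 ER chaperones (86.7%). The same held for 9 of 13 HSP90 cochaperones (69.2%). It held for 2 of 12 mitochondrial chaperones and proteases (16.7%) and 1 of 6 nucleotide exchange factors (16.7%). The share was 90% for the 10 members and 32.2% for the 10424 genes.

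HSPH1 and DNAJB1 serve the HSP70 cycle, as an HSP110 exchange factor and a J-domain partner. HSPH1 (chr13:31134974-31162388, minus strand) had 328 and 265 CPM in siNC and 346 and 281 CPM in siPRR11, and the groups overlapped (log2 fold change 0.08 ± 0.112 SE, 95% interval -0.16 to 0.33, edgeR adjusted p = 0.681). Its direction changed to -0.07 without siNC library 2 and to -0.08 without siPRR11 library 1. DNAJB1 (chr19:14514770-14529770, minus strand) had 103 and 85.7 CPM in siNC and 107 and 104 CPM in siPRR11. Both silenced libraries were above the controls, but not by more than the spread (log2 fold change 0.16 ± 0.0908 SE, 95% interval -0.04 to 0.36, edgeR adjusted p = 0.276). Without siNC library 1 the value was 0.29 and passed the test (edgeR adjusted p = 0.0117), and without siNC library 2 it was 0.03. A share of 6.21% of its exonic bases overlaps TECR on the other strand, and the use of strand in counting is not given in the sources used here.

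Among 7 tested of 8 other cytosolic HSP70 and HSP110 genes, 2 rose, or 28.6% beside 16.7% of all genes. The median log2 fold change of the 7 was 0.12. HSPA14, a ribosome-associated HSP70, had 14.1 and 15.4 CPM in siNC and 19.8 and 22.7 CPM in siPRR11 (log2 fold change 0.53 ± 0.104 SE, edgeR adjusted p = 0.00498), and its adjusted p was 0.0502 without siPRR11 library 2. HSPA4L, an HSP110 protein, had 65.5 and 56.3 CPM in siNC and 82.4 and 69.5 CPM in siPRR11 (log2 fold change 0.32, edgeR adjusted p = 0.04999), at the edge of the threshold. It lost the call without siNC library 2 (edgeR adjusted p = 0.131) and without siPRR11 library 1 (edgeR adjusted p = 0.429). HSPA6, a strictly stress-inducible HSP70 chosen here after its values were seen, was near the floor, with means of 0.484 RPKM in siNC and 0.276 RPKM in siPRR11 (log2 fold change -0.87, edgeR adjusted p = 0.0622).

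The 12 other cytosolic J-domain genes had a median log2 fold change of 0.07. Of them, 8.33% were called beside 16.7% of all genes, so 11 did not pass the test and 1 rose. This was DNAJB6, a suppressor of protein aggregation, with 334 and 358 CPM in siNC and 400 and 434 CPM in siPRR11 (log2 fold change 0.27, edgeR adjusted p = 0.0297). It lost the call without siNC library 1 (edgeR adjusted p = 0.0562) and without siPRR11 library 2 (edgeR adjusted p = 0.267). Of 6 nucleotide exchange factors of HSP70, 1 fell, or 16.7% beside 16.7% of all genes, and the median was -0.08. BAG1, which links HSP70 to the proteasome, had 54.1 and 51.3 CPM in siNC and 40.0 and 41.9 CPM in siPRR11 (log2 fold change -0.36, edgeR adjusted p = 0.00939), with an adjusted p of 0.116 without siPRR11 library 1.

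HSPB1, the small heat shock protein HSP27 (chr7:76302544-76304295, plus strand), had 233 and 193 CPM in siNC and 204 and 203 CPM in siPRR11. The silenced libraries lay between the controls (log2 fold change -0.06 ± 0.0893 SE, 95% interval -0.26 to 0.13, edgeR adjusted p = 0.682), and the direction turned to 0.08 without siNC library 1. Of 5 tested of 8 other small heat shock genes, HSPB8, which works with BAG3 in the clearance of aggregates, was the 1 that fell, from 11.1 and 9.14 CPM to 8.05 and 5.95 CPM (log2 fold change -0.54 ± 0.154 SE, edgeR adjusted p = 0.0334). It lost the call without siNC library 1 (edgeR adjusted p = 0.0700) and without siPRR11 library 2 (edgeR adjusted p = 0.256). The 1 of 5 called is 20%, beside 16.7% of all genes. The median of these 5 genes was 0.43, the value of HSPB6, which had mean levels of only 0.0730 RPKM in siNC and 0.0953 RPKM in siPRR11 and was chosen here after its values were seen.

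HSPD1, the mitochondrial chaperonin HSP60 (chr2:197486581-197516737, minus strand), had 614 and 572 CPM in siNC and 666 and 652 CPM in siPRR11. Both silenced libraries were higher, at 593 ± 30.2 and 659 ± 10.2 CPM (SD, n = 2), and the difference did not pass the test (log2 fold change 0.15 ± 0.072 SE, 95% interval -0.01 to 0.31, edgeR adjusted p = 0.182). HSPE1, the lid of this chaperonin, is transcribed from the other strand beside it, and 6.62% of the exonic bases of HSPD1 overlap it. HSPD1 had 0.721 and 0.663 times the RPKM of HSPE1 in siNC and 0.804 and 0.822 times in siPRR11, without overlap (two-sided exact permutation p = 0.333). The processed copy HSPD1P1 had 8.27 and 8.49 CPM in siNC and 11.0 and 10.6 CPM in siPRR11 (log2 fold change 0.37, edgeR adjusted p = 0.0376), and 3.91% of the 100-base windows of HSPD1 occur in it. Its call was lost without siNC library 1 (edgeR adjusted p = 0.0673) and without either siPRR11 library (edgeR adjusted p = 0.234 and 0.148).

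Of 15 other mitochondrial chaperones and proteases, 2 fell, or 13.3% beside 16.7% of all genes. The other 13 did not pass the test, and the median log2 fold change of the 15 was -0.08. HSCB, a J-domain protein of iron-sulfur cluster assembly, had 3.76 and 2.97 CPM in siNC and 2.10 and 1.80 CPM in siPRR11 (log2 fold change -0.79 ± 0.185 SE, edgeR adjusted p = 0.0129), with an adjusted p of 0.0504 without siPRR11 library 2. AFG3L2, a protease of the inner membrane, had 171 and 193 CPM in siNC and 135 and 142 CPM in siPRR11 (log2 fold change -0.39, edgeR adjusted p = 0.00614).

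The cytosolic chaperonin TRiC and prefoldin, which fold actin and tubulin, had 2 falls among 14 genes, or 14.3% beside 16.7% of all genes. The median log2 fold change of the 14 was -0.02. CCT6A, a subunit of TRiC, had 432 and 399 CPM in siNC and 317 and 295 CPM in siPRR11 (log2 fold change -0.44, edgeR adjusted p = 0.00226). PFDN2, a subunit of prefoldin, had 491 and 504 CPM in siNC and 388 and 393 CPM in siPRR11 (log2 fold change -0.35, edgeR adjusted p = 0.00525). The other subunits of both complexes did not pass the test.

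Of 15 ER chaperones, listed for comparison, 2 fell, or 13.3% beside 16.7% of all genes. Of the 15, 12 had a log2 fold change below 0, beside 10755 of all 21630 genes. The median of the 15 was -0.13. HSPA5, the HSP70 of the ER known as BiP, had 986 and 734 CPM in siNC and 662 and 572 CPM in siPRR11 (log2 fold change -0.48 ± 0.120 SE, edgeR adjusted p = 0.0178). Its groups did not overlap, although its control libraries differed 1.34-fold. HYOU1, the HSP110 protein of the ER, had 357 and 308 CPM in siNC and 277 and 253 CPM in siPRR11 (log2 fold change -0.33, edgeR adjusted p = 0.0225), and lost the call without siNC library 1 (edgeR adjusted p = 0.0537) and without siPRR11 library 2 (edgeR adjusted p = 0.144).

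The heat shock factors tested and HSBP1 did not pass the test. Of these 4 genes, edgeR with the group as the only term called 0, and 2 had an unadjusted p below 0.05. DESeq2 and limma called 0, and edgeR with a block for replicate number called 2, beside 32.3% of all genes. HSF1 had 20.2 and 19.9 CPM in siNC and 24.0 and 23.5 CPM in siPRR11, so the silenced libraries were higher without passing (log2 fold change 0.25 ± 0.089 SE, 95% interval 0.05 to 0.44, edgeR adjusted p = 0.0827). HSBP1, a binding partner of HSF1, had 214 and 208 CPM in siNC and 210 and 206 CPM in siPRR11 (log2 fold change -0.02, edgeR adjusted p = 0.888), and limma gave 0.03. Over all 9 lists, 15 of 91 tested genes were called, 4 higher and 11 lower, which is 16.5% beside 16.7% of all genes. In limma with either pseudocount, HSPA4L, DNAJB6, BAG1, HSPB8, HSCB, AFG3L2, PFDN2, HSPA5 and HYOU1 lost their calls, with adjusted p-values between 0.0517 (DNAJB6) and 0.164 (HSPB8).

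**Figure D4:**
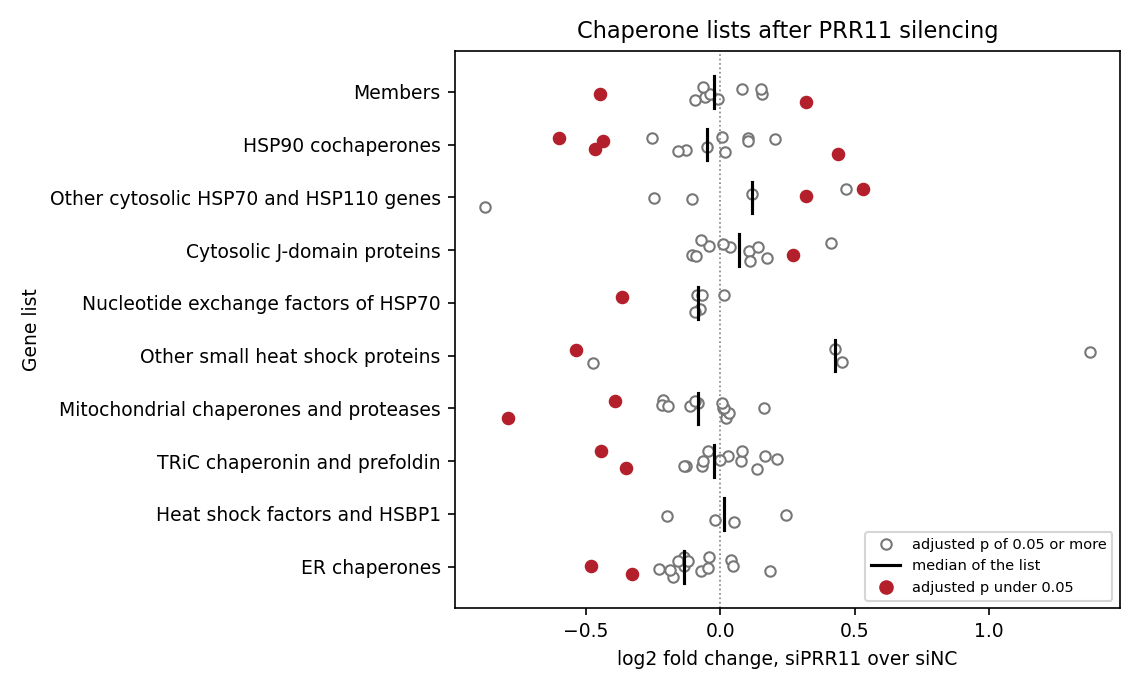
Log2 fold change of siPRR11 over siNC (x axis) for each gene of the chaperone lists (y axis), filled red where the edgeR adjusted p is below 0.05, with the median of each list as a bar. Called genes lie on both sides of 0, and the largest shift of a median among lists of more than 10 genes is that of the ER chaperones at -0.13.

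The genes whose pattern over the 4 libraries was closest to that of HSP90AB1, by Euclidean distance of centred log2 CPM among 10423 genes, were ZYX at 0.0165, FJX1 at 0.0229 and PSMD7 at 0.023. ZYX, a focal adhesion protein, had 63.6 and 61.5 CPM in siNC and 46.0 and 45.9 CPM in siPRR11. FJX1 had 39.5 and 38.3 CPM in siNC and 28.3 and 28.2 CPM in siPRR11. PSMD7, a subunit of the proteasome, had 293 and 283 CPM in siNC and 213 and 211 CPM in siPRR11. These are distances over 4 libraries that share the same groups.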

How the data were processed

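According to the study's methods, stranded libraries were sequenced on a DNBSEQ-T7 instrument, and reads were trimmed, mapped to GRCh38 with STAR and counted with featureCounts. The submitters' processing notes name Trimmomatic 0.36 and Subread 1.5.1. The annotation release, the use of strand and the treatment of reads with several matches are not given in the sources used here. The authors deposited raw read counts per gene, and the authors also deposited RPKM values that equal count over length and column total to within 3.08e-06% in 15916 genes. Both tables were used in full.

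Counts were tested with edgeR 4.0.16 in R 4.3.3 (quasi-likelihood test, TMM, filterByExpr, Benjamini-Hochberg adjustment over 21630 genes, threshold 0.05), with all 4 libraries and the group as the only term. The standard error is the log2 fold change divided by the square root of F, and the 95% intervals use its t quantile. CPM and RPKM are levels, and fold changes are differences on the log2 scale. The 2 libraries of a group differed by more than sampling noise (chi-square per degree of freedom 20.8 in siNC and 14.1 in siPRR11), so none was counted as a duplicate. This sets the spread between libraries against sampling noise of single reads, and for genes near the floor depth also limits the precision. Of counts from 1 to 50, 74.9% were even, the cause of which was not tested, so counting error may be larger than the counts alone give.

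Alternatives were RLE, DESeq2 1.42.0, no filter, a minimum of 10 counts per library, a block for replicate number, limma 3.58.1 with a trend on log2(RPKM + 1) and log2(RPKM + 0.1), each library left out, HSPA1A and HSPA1B summed, and pseudogenes added to their parents. The tests were checked on simulated data with libraries drawn independently. This check does not cover same-numbered libraries that deviate together. Named genes were PRR11, the 10 members, HSF1, up to 3 called genes per list and direction with the largest change (or the most abundant gene of a list with none), the most counted pseudogene of each member, and the 3 nearest patterns of the member with the smallest p. Pseudogenes of HSP90AA1, HSPA8 and HSPB1 did not pass the test, and DNAJB1P1 was not tested. Shared windows come from GENCODE release 44 transcripts and positions from the deposited table. The members and lists were chosen with earlier results of these data known.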

Additional observations from a re-analysis of the deposited data

How the results depend on the processing

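The fall of PRR11 kept its direction and its call in all 11 alternatives, with log2 fold changes from -1.54 to -1.41 when 1 library was left out and -1.22 in limma with a pseudocount of 1. The fall of HSP90AB1 was called in 11 of 13 alternatives and the rise of AHSA1 in 9 of 13, both with 1 direction. The number of genes called was 3622, and 6988 with the replicate number as a block, 1775 and 1878 in limma with pseudocounts of 1 and 0.1, and 2172 to 4590 with 1 library left out. In limma, 1091 genes were higher and 684 lower (pseudocount 1) or 1152 and 726 (pseudocount 0.1), against 1645 and 1977 in edgeR. Chaperone members called were 2, and 0 in limma with either pseudocount, where 3 had an unadjusted p below 0.05, and DESeq2 called 2. Of all genes, limma called 8.21% (pseudocount 1) and 8.68% (pseudocount 0.1), and DESeq2 called 20.3%. The number of members called moved by more than 1.5 times when siNC library 1, siNC library 2 or siPRR11 library 1 was left out. The number over all genes moved that far only when a siPRR11 library was left out. Genes called in the wider lists were 15, and 35 with the block, 5 and 6 in limma, and 12 to 22 with 1 library left out.

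Same-numbered libraries deviated together (correlation of deviations from the group means 0.39 over all tested genes and 0.55 over 10424 genes whose log2 CPM averaged 3 or more), but 2 pairs do not show that the numbers mark a shared culture. With the block, DNAJB1 (0.16, adjusted p = 0.0397) and HSF1 (0.25, adjusted p = 0.00879) passed the test, HSP90AA1 and HSPA1A turned to 0.0014 and 0.039 without passing, and 3 members were called. Of the 4 tested genes that are heat shock factors or HSBP1, 2 were called with the block, HSF1 and HSF4, the latter named after its values were seen.

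Genes that did not pass changed sign in some settings. HSP90AA1 was at 0.0013 with at least 10 counts in every library. In limma with pseudocounts of 1 and 0.1, HSP90AA1 was at 0.049 and 0.049, HSPA8 at 0.020 and 0.020, HSPA1A at 0.095 and 0.11, HSPA1B at 0.031 and 0.033, and HSBP1 at 0.027 and 0.028. With 1 library left out, the log2 fold change ran from -0.18 to 0.18 for HSP90AA1, from -0.35 to 0.31 for HSPA8, from -0.48 to 0.62 for HSPA1A, from -0.52 to 0.51 for HSPA1B, from -0.076 to 0.24 for HSPH1, from -0.20 to 0.076 for HSPB1, from -0.28 to 0.082 for HSP90AB2P, from -0.37 to 0.64 for HSPA8P5 and from -0.023 to 0.80 for HSPB1P1. The cause of these changes was not tested. Of 416 recomputed values of single genes, 343 kept direction and side of the threshold, 39 lost a call, 9 gained one and 28 changed sign, of which 3 are among those that gained a call. Of 35 recomputed counts of calls, 22 stayed within 1.5 times and 13 moved further. With 2 libraries a group and 1 cell line, changes of the size seen between libraries of a group cannot be resolved, and mRNA levels give no protein level.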

Other observations

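Among copies of the chaperone genes, the most counted ones of HSP90AA1, HSPA8 and HSPB1 had log2 fold changes of 0.10 for HSP90AA2P (5.05 and 4.59 CPM in siNC, 5.36 and 4.98 CPM in siPRR11), 0.23 for HSPA8P5 and 0.38 for HSPB1P1 (edgeR adjusted p = 0.68, 0.712 and 0.539, Benjamini-Hochberg), and none passed the test. HSPA8P5 had 0.661 and 0.931 CPM in siNC and 1.23 and 0.608 CPM in siPRR11, so that the order of its libraries was not that of HSPA8. The pseudogenes of HSPA8 together held between 0.116% and 0.178% of the counts of HSPA8, those of HSP90AA1 between 0.177% and 0.214%, those of HSPB1 between 0.179% and 0.45%, and those of HSPD1 between 1.46% and 1.79%.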
